A study of Mus musculus with 4 samples.

Results

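The regions described are groups of neighbouring initiation sites, away from annotated gene starts, that were called in mouse liver and not in yolk sac: 369 regions in 105 chains, out of 61095 merged regions in all. PRO-seq, which maps engaged RNA polymerases through their nascent RNA, had been run on liver and yolk sac at E14.5 with 2 libraries per tissue, and each library came from 6 pooled embryos. All 4 libraries shared 1 cross, of C57BL/6J mothers with fathers of mixed C57BL/6J and CAST/EiJ descent whose Dlk1/Gtl2 locus was CAST/EiJ, and no treatment is labelled. The sample labels spell the first strain C57BL/6h, the series' design text C57BL/6J. The run-on was made on chromatin isolated from frozen, powdered tissue, so all cell types of the organ contributed. The labels do not say whether the pools of a tissue came from separate litters. For each library the authors deposited a list of dREG peaks, intervals scored as initiation sites. Liver replicate 1 had 24863 peaks and replicate 2 had 24333, while yolk sac replicate 1 had 50525 and replicate 2 had 43055.

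Active enhancers are themselves transcribed, and a run-on assay sees them as sites of initiation far from any gene start. Enhancers of one gene often lie close together, and dense groups of them have been described at genes that define a cell's identity, the globin loci of red cell precursors among them. The fetal liver at this stage is the main site of red cell formation, with erythroid precursors lying between the hepatocyte precursors. The yolk sac consists of an endoderm layer and a mesoderm layer with blood vessels.

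Members were chosen as follows. Peaks of the 4 lists that overlapped were merged, and a region was kept when both liver lists and neither yolk sac list had a peak in it and no GENCODE M21 transcript start lay within 500 bp. Kept regions separated by at most 12500 bp were joined into chains, and chains of 3 or more regions were retained. Of all merged regions 6.62% were liver-only, and of the 42751 distal ones 8.01% were, which is 3424 regions. The calls chose the members, so their absence from yolk sac is a description and carries no test. The files give no read numbers, so the depth is unknown, and so is the limit of detection in each library. In pooled tissue, fewer cells of a type and less RNA per cell cannot be told apart.

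Erythroid promoters were called more often in liver than in yolk sac. Of 39 annotated erythroid genes, 37 had a promoter peak in each liver list and 19 in each yolk sac list. Of 22 hepatic genes, 19 and 18 had one in liver and 18 and 18 in yolk sac. Of 10 yolk sac endoderm genes, 7 and 6 had one in liver and 9 and 9 in yolk sac. For 12 mesenchymal genes the counts were 7 and 10 in liver and 11 and 11 in yolk sac, and for 18 myeloid and macrophage genes 9 and 9 against 12 and 11. For 20 hematopoietic progenitor genes they were 16 and 18 against 18 and 18, and for 12 endothelial genes 7 and 10 against 12 and 11. Of the 39 erythroid genes, 17 had a promoter peak in both liver and neither yolk sac list, against 1.01% of all protein-coding genes. The reverse held for 0 of the 39, against 5.26%. The erythroid promoter calls moved with the same contrast as the clustered regions, and their part in it was not tested.

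No genome sequence was used, but RefSeq gives the 250 bases before each of its start sites, and 9 of these windows overlapped a clustered region. By the distal rule, none of these 9 start positions is a GENCODE M21 start. In all, 10 of the 369 regions (2.71%) had a RefSeq start within 500 bp, as did 3.27% of the other liver-only distal regions. Only in these windows could clustered regions be read base by base. Some windows run past the region, which holds 212 of the 250 bases for Gm30211, 211 for Gm41604, 182 for Gm52391 and 34 for Gm32633. The other windows lie wholly inside. Of the windows, 5 are shown. The set comprises the windows with a GATA match or with more than 1 CCACCC match and the window in the beta-globin region. Apart from the windows beside Rpia and in the beta-globin region, they were chosen after the matches were known. Sequences run 5′ to 3′ on the strand of the RefSeq gene, build GRCm38.p6. Capitals mark AGATAA or TGATAA (the core bound by GATA factors such as GATA1), CCACCC (the core bound by KLF1) and an E-box, CANNTG, where it stands 6 to 12 bases before a GATA match, all on either strand.
Gm30211, in the chain next to Rpia, chr6:70728963-70729212, plus strand: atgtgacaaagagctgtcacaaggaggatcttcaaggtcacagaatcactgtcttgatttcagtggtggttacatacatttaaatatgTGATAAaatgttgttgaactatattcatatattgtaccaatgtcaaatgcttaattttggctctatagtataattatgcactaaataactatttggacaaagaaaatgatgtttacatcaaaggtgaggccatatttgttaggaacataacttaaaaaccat
Gm32900, in the chain next to Igsf3, chr3:101354604-101354853, minus strand: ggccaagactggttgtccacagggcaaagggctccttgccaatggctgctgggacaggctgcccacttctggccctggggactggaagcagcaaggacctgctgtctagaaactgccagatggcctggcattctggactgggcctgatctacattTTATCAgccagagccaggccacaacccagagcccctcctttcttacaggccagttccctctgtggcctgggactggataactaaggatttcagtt
Gm41604, in the chain in Rfx2, chr17:56793612-56793861, plus strand: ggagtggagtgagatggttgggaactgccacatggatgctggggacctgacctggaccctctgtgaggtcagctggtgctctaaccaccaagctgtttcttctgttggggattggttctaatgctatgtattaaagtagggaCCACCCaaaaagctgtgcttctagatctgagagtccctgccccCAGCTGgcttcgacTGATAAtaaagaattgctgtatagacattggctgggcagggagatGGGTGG
Gm29933, in the chain in Zfp652, chr11:95808605-95808854, minus strand: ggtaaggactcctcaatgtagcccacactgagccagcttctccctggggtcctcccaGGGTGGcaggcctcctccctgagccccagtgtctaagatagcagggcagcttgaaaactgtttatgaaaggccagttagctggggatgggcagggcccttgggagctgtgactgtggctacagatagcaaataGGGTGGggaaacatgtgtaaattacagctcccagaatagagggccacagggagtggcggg
Olfr631, in the chain next to Olfr65, chr7:103914812-103915061, plus strand: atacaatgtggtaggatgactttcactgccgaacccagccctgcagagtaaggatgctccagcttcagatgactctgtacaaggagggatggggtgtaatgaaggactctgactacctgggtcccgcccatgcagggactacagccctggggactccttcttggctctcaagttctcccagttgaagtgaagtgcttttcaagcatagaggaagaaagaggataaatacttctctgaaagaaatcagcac

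A GATA match was found in 3 of the 9 windows, against 16.6% of 32817 RefSeq windows of the same length. A CCACCC match was found in 3 of the 9, that of Gm32633 lying outside the clustered region, against 28.1% of all windows. The window of Gm41604 held both, and its GATA match stood 3′ of an E-box at the spacing of the composite element bound by TAL1 and GATA1, an arrangement found in 0.771% of all windows. With 9 windows these counts describe single sequences and show no preference. Of the other cores searched, TGTTTAC (FOXA factors) was found in 1 of the 9 windows, that of Gm30211, and in 3.16% of all windows. TGACTCA (NFE2 and AP-1), CAAAGTC (HNF4A) and TTGCAA (C/EBP factors) were in none of the 9, and in 4.46%, 3.84% and 5.34% of all windows. A match is a description of letters and not a site shown to be bound. The median G and C content was 49.6% in the 9 windows and 52.4% over all windows.

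The chains were short. Of the 105 chains, 72 had 3 regions, 21 had 4, 5 had 5, 5 had 6 and 2 had 7. The median span was 14.3 kb (range 3.90 to 44.5 kb), and within it the regions covered a median of 3.81 kb. The largest gap inside a chain had a median over chains of 6.70 kb. Clustered regions lay on 20 chromosomes, most on chromosome 11 with 40 regions in 12 chains, and 15 chains had another chain within 1 Mb. On chromosome 7, 17.2% of the liver-only distal regions were in chains, on chromosome 15 2.04%.

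The gaps between clustered regions held few peaks of either tissue. The rule bars yolk sac peaks from the regions themselves but not from these gaps. Of the 105 spans, 71 held no yolk sac peak, and 61 of them held no other region of any kind. Outside the members, the 105 spans held 41 peaks of liver replicate 1 and 36 of replicate 2, beside 45 of yolk sac replicate 1 and 41 of replicate 2. A region called in all 4 libraries lay within 17 spans, and a yolk-sac-only region within 13. The nearest yolk sac peak was a median of 9.40 kb from a clustered region and 6.35 kb from the other liver-only distal regions. It was within 1 kb for 22 of the 369 clustered regions (5.96%), and the closest was 98 bp away.

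**Figure D1:**
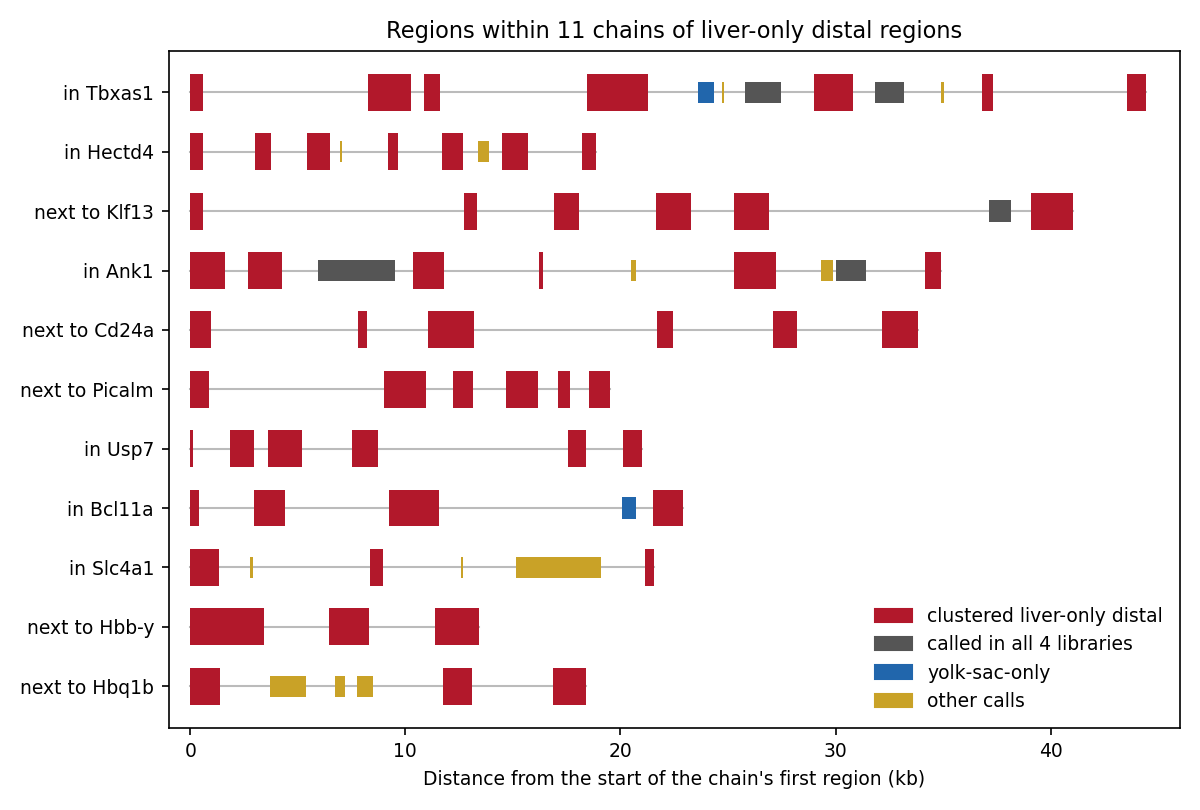
Regions along 11 chains: the 7 with 6 or 7 regions, followed by those at Bcl11a, Slc4a1, Hbb-y and Hbq1b. The x axis is the distance from the start of the first region in kb, and blocks are merged regions drawn to scale, tall and red for clustered liver-only distal regions and low for other regions by the libraries that called them; the low yellow blocks include liver-only regions at promoters. The chains at Cd24a, Picalm, Usp7 and Hbb-y hold no other region, while those at Tbxas1, Klf13 and Ank1 are interleaved with regions called in all 4 libraries.

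Clustering was compared with that of the other distal regions by the same chaining. Of the 3424 liver-only distal regions, 10.8% were in chains (95% Wilson interval 9.78 to 11.9). A further 758 formed 379 pairs and 2297 stood alone. Of the 17232 yolk-sac-only distal regions (40.3% of distal regions), 26.1% (25.5 to 26.8) were in 1191 chains of up to 14 regions, and of the 3814 distal regions called in all 4 libraries 6.77% (6.01 to 7.61) were in 78 chains. The order of the 2 tissues turned round in lists of equal length. With every list shortened to its 24333 peaks of highest score, the share in chains was 11.9% for liver-only and 7.36% for yolk-sac-only distal regions. The shortening removed mostly yolk sac peaks. Regions counted as liver-only in that setting therefore include some with a yolk sac peak in the full lists. Distal regions called in exactly 1 library of each tissue numbered 505 over the 4 pairings of libraries and formed 0 chains, pooled or apart. Of the distal regions called in liver replicate 1 alone, 29 of 1881 were in chains, and of those called in liver replicate 2 alone, 6 of 1186. How many regions fall within a fixed gap of each other depends on their number, so these counts cannot be set against the share of the 3424. The same dependence applies to the shares of the liver-only, yolk-sac-only and shared regions, whose numbers differ.

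**Figure D2:**
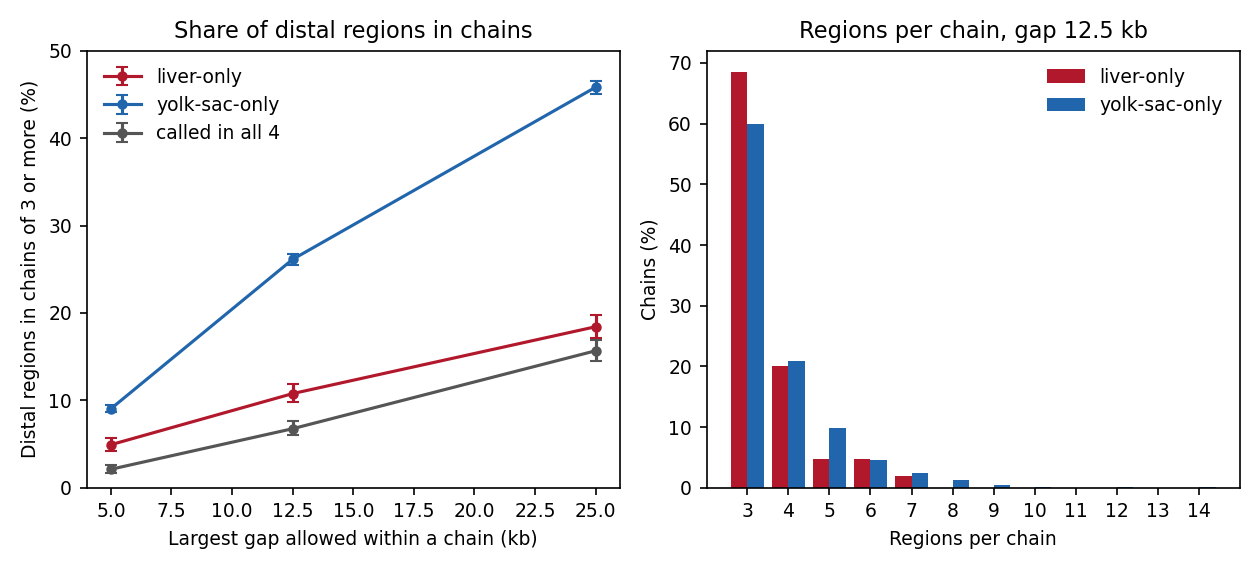
Left, share of distal regions in chains of 3 or more against the largest gap allowed (kb), with 95% Wilson intervals, for liver-only, yolk-sac-only and shared regions; right, share of chains (%) by their number of regions. At 12500 bp the shares are 10.8%, 26.1% and 6.77%, and 72 of the 105 liver-only chains have 3 regions.

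The gap of 12500 bp cut through a continuous range of spacings. The largest gap kept was 12448 bp and the smallest left out 12548 bp. There were 32 gaps between 11500 and 12500 bp and 22 between 12500 and 13500 bp. With a gap of 5 kb 51 chains with 169 regions were formed, and with 25 kb 170 chains with 631 regions.

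Clustered regions had a median width of 1052 bp (quartiles 702 and 1452), against 852 bp (602 and 1252) for the other liver-only distal regions. Their scores were spread over the range of the liver lists. The median percentile of the score within its list was 46.7 in liver replicate 1 and 41.96 in replicate 2, against 41.8 and 35.6 for the other liver-only distal regions. Above the 90th percentile were 36 clustered regions in replicate 1 and 28 in replicate 2, and 13 in both. That is 3.52% of the clustered regions, beside 4.09% of the others. Across the 369 regions the percentiles of the 2 lists had a Pearson correlation of 0.743 and a Spearman correlation of 0.741, given as a description since neighbouring regions share their surroundings. Of the 105 chains, 11 had a region above the 90th percentile in both lists and 69 had 1 above the 50th.

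**Figure D3:**
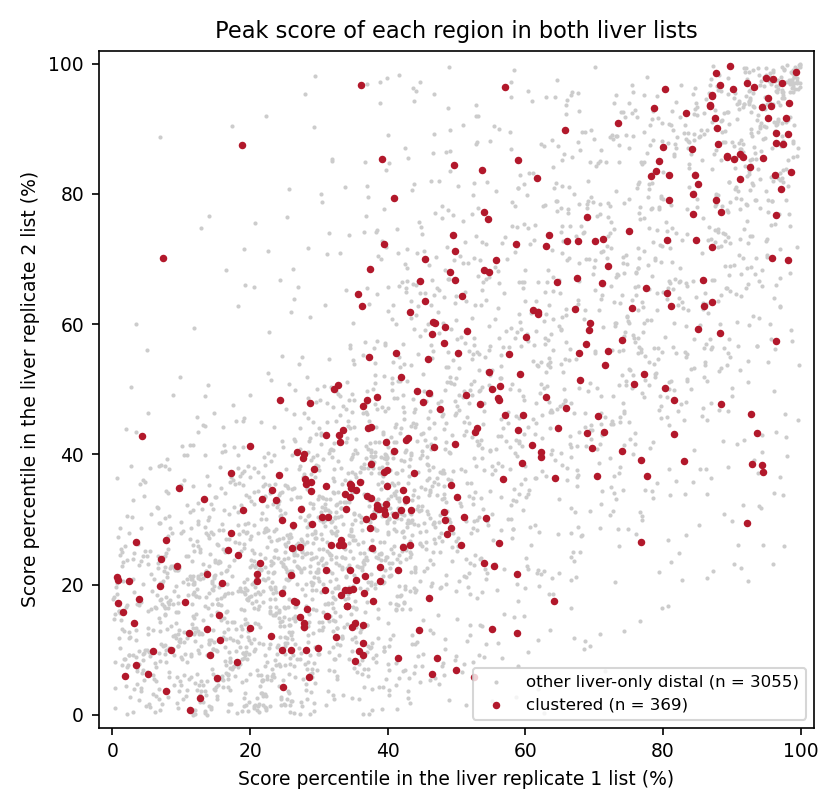
Percentile (%) of the peak score within the liver replicate 1 list (x axis) and the liver replicate 2 list (y axis). Each point is a region, red for the 369 clustered regions and grey for the 3055 other liver-only distal regions; the clustered regions fill the same range as the others, with medians of 46.7 and 41.96.

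Most clustered regions lay inside genes and away from their starts. The midpoint was in an annotated gene for 68.0% of the 369 regions (95% Wilson interval 63.1 to 72.6), against 63.6% (61.8 to 65.3) of the other liver-only and 56.3% (54.9 to 57.7) of the clustered yolk-sac-only distal regions. It was in a protein-coding gene for 216 regions. Only 8 midpoints (2.17%, interval 1.10 to 4.22) were exonic, against 7.17% (6.31 to 8.14) of the other liver-only distal regions, so nearly all genic members were intronic. The median distance to the nearest protein-coding start was 16.2 kb, against 11.4 kb for the other liver-only regions and 20.5 kb for the clustered yolk-sac-only regions. Within protein-coding genes, 64.8% of the clustered midpoints and 55.9% of the others were in the 5′ 50% of the gene. Regions of 1 chain are not independent, so these intervals are narrower than the data allow.

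Of the 105 chains, 69 had at least 1 region overlapping a protein-coding gene, and in 55 all regions overlapped the same one. The remaining 36 lay outside protein-coding genes, 13 of them with a midpoint in a noncoding gene and 23 in no annotated gene. The host genes were long, with a median of 100.2 kb against 17.4 kb for all protein-coding genes. A long gene has more room for 3 regions, and its share in these counts was not tested.

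The promoters of the genes concerned were mostly called in both tissues. The genes of the chains were taken as the protein-coding genes overlapped by a region and the gene whose start was nearest the middle of the chain, 115 genes or 0.524% of 21938. A promoter peak was counted within 500 bp of any annotated start of the gene. It was present in all 4 libraries at 97 of the 115 genes (84.3%, 95% Wilson interval 76.6 to 89.9), against a background of 53.8% of all protein-coding genes. A promoter peak in both liver and neither yolk sac library was found at 3 genes (2.61%, interval 0.891 to 7.39), against a background of 1.01%. The reverse was found at 2 genes (1.74%, 0.478 to 6.12), against 5.26%. At 11 genes (9.57%, 5.43 to 16.3) no library had a promoter peak, against 34.2% of all protein-coding genes. A gene with more annotated starts has more chances of a call, and the background was not matched for gene length or number of starts. Promoter calls come from the same libraries as the members, so nothing is tested here.

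The 3 genes with a liver-only promoter were Slc4a1, Hbq1b and Kcnn4, the last named after its values were seen. Slc4a1 encodes the band 3 anion exchanger of the red cell membrane, Hbq1b a theta globin of the alpha-globin cluster, and Kcnn4 the calcium-activated potassium channel of red cells. The 2 genes with a yolk-sac-only promoter, also named after the fact, were Osm, which encodes the cytokine oncostatin M, and Rbm20, which encodes a splicing factor. At those 2 genes the distal regions were called in liver and the promoter in yolk sac. The span of the Osm chain held a yolk-sac-only region, and a yolk sac peak lay 198 bp from 1 of its members. The Osm chain was lost when peaks were merged across gaps of up to 500 bp or no yolk sac peak was allowed within 1 kb. The chain in Rbm20, with its nearest yolk sac peak 4298 bp away, was kept in both.

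**Figure D4:**
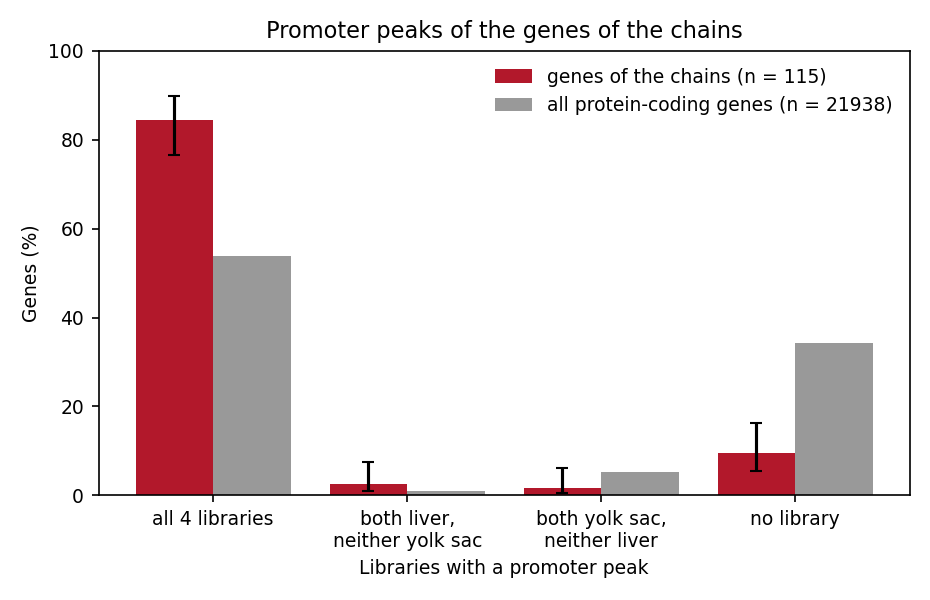
Share of genes (%) by the libraries with a promoter peak, for the 115 genes of the chains (red, with 95% Wilson intervals) and all 21938 protein-coding genes (grey). Promoter peaks in all 4 libraries are found at 84.3% of the genes of the chains and 53.8% of all genes.

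Among the gene panels, chains were found at 3 erythroid genes and at no gene of the other panels. Of 39 annotated erythroid genes 3 were genes of a liver-only chain, Ank1, Bcl11a and Slc4a1, which is 7.69% beside 0.524% of all protein-coding genes. Ank1, Bcl11a and Slc4a1 span 175.7, 96.1 and 17.4 kb, against a median of 17.4 kb for all protein-coding genes, and the part of length was not tested. None of the 20 hematopoietic progenitor, 18 myeloid and macrophage, 22 hepatic, 12 endothelial, 12 mesenchymal or 10 yolk sac endoderm genes was a gene of a liver-only chain. At a share of 0.524%, panels of this size would mostly have no such gene, so their 0 counts do not set them apart. Chains of yolk-sac-only regions, which touched 5.29% of protein-coding genes, were at 2 erythroid, 3 progenitor, 4 myeloid, 2 hepatic, 1 endothelial, 3 mesenchymal and 2 yolk sac endoderm genes. The erythroid count ranged from 1 to 11 over the alternatives, and is given with the share of all protein-coding genes at a chain. The count was 1 with a gap of 5 kb (0.260% of all genes) and 1 when the lower-scoring 50% of peaks were dropped (0.0820%). With the 5 kb gap the chain in Bcl11a was still overlapped by a chain, and those at Ank1 and Slc4a1 were lost. In the higher-scoring 50% the chains at Ank1, Bcl11a and Slc4a1 were all lost. The count was 8 with a gap of 25 kb (0.889%) and 5 with lists of equal length (0.807%). With a promoter window of 250 bp it was 5 (0.561%). Without liver replicate 1 it was 5 (0.902%), and without liver replicate 2 it was 11 (1.14%). The hepatic count was 0 in all of them except when liver replicate 2 was left out, where it was 1. A chain further from a panel gene than from another gene's start is not in these counts.

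Ank1 encodes ankyrin 1, which ties band 3 to the spectrin skeleton under the red cell membrane. The chain inside it (chromosome 8, 23027651 to 23062552) had 6 intronic regions with midpoints 53.6 to 87.3 kb from the gene's 5′ end. That measure is used for distances below unless another is named. Other annotated starts of Ank1, within the gene, lay closer, 3496 to 8721 bp from the midpoints. The fifth region, at 23052951 to 23054902, was at percentile 97.4 in liver replicate 1 and 87.6 in replicate 2. The first, at 23027651 to 23029252, was at 86.8 and 93.6. The region at 23043851 to 23044052 was the lowest, at 11.3 and 0.711. Both lists ranked the first and the fifth region above the other members of the chain. The span held 9 peaks in each liver list, those of the members included, and 2 in each yolk sac list. The yolk sac peaks were in 2 regions called in all 4 libraries, which lay at annotated Ank1 starts within the gene. A promoter peak of Ank1 was counted in all 4 libraries, but any annotated start counts, and these 2 regions are enough for it. Whether the start at the 5′ end was called in yolk sac is not shown by that count.

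Bcl11a encodes the repressor that silences embryonic and fetal globin genes, and its large intron is known for erythroid enhancers. Its chain (chromosome 11, 24126201 to 24149102) had 4 intronic regions between 48.3 and 70.3 kb downstream of the gene's 5′ end. The nearest annotated start of Bcl11a was 5777 to 15977 bp from their midpoints. The region at 24129151 to 24130602 was at percentile 45.5 and 63.5 in the liver lists. The region at 24135451 to 24137752 was at 64.4 and 36.4. The outer regions were lower, at 10.6 and 17.4 for the first and 26.9 and 40.4 for the last. No region of this chain was in the top of the liver lists. A yolk-sac-only region lay 798 bp from the last. A promoter peak of Bcl11a was present in all libraries but yolk sac replicate 1.

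At Slc4a1 (chromosome 11, 102347201 to 102368752) 1 of 3 regions overlapped the gene and the others flanked it on either side. Percentiles were low, between 16.8 and 34.6 in liver replicate 1 and between 22.2 and 25.7 in replicate 2. The span had 5 peaks in each liver list, those of the members and the promoter included, and 0 in each yolk sac list.

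Beside the globin genes lay 3 chains, each among the 10 leading chains by score percentile. Next to Hbb-y, the embryonic beta-like globin gene, 3 regions lay 7.06 to 17.7 kb upstream of the gene (chromosome 7, 103858551 to 103871952). This is the side on which the locus control region, a group of erythroid enhancers, lies. Their percentiles were 91.1, 86.0 and 87.6 in liver replicate 1 and 86.1, 62.7 and 91.6 in replicate 2. Hbb-y itself had no promoter peak in any library, and the nearest yolk sac peak was 346398 bp away. A second chain of 3 began 37.4 kb further on, next to the olfactory receptor gene Olfr65 (103909301 to 103916552), with percentiles of 88.3, 49.8 and 73.5 in replicate 1 and 96.8, 41.6 and 90.9 in replicate 2. Its last region holds the Olfr631 window printed above, and with RefSeq starts added to the promoter filter this chain was lost. In the alpha-globin cluster, 3 regions around Hba-a1, Hbq1b and Hba-a2 (chromosome 11, 32280601 to 32299002) were at 70.1, 40.9 and 92.3 in replicate 1 and 72.8, 40.5 and 97.03 in replicate 2. No yolk sac peak lay in any of the 3 spans. Reads from the near-identical alpha-globin copies can be placed at either copy, so these positions are uncertain.

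The 2 chains with 7 regions were inside Tbxas1 and Hectd4. Tbxas1 encodes thromboxane A synthase, an enzyme of platelets and macrophages. Its chain (chromosome 6, 38891951 to 38936402) was the longest, at 44.5 kb, and began 16.9 kb from the 5′ end. The highest region, at 38910401 to 38913252, was at percentile 69.0 in liver replicate 1 and 76.4 in replicate 2, and the lowest, at 38928751 to 38929252, at 26.0 and 21.5. Yolk sac had 4 and 3 peaks in the span, in regions between those of the chain. Hectd4, which encodes a HECT-type ubiquitin ligase, had 7 regions within 18.9 kb (chromosome 5, 121230601 to 121249452) and no yolk sac peak in the span. Its percentiles ran from 20.03 to 55.4 in replicate 1 and from 22.9 to 85.4 in replicate 2. The lists disagreed on which region was strongest, at 121248801 to 121249452 in replicate 1 and at 121233601 to 121234352 in replicate 2.

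Of the 5 chains with 6 regions, 3 besides Ank1 were outside protein-coding genes and 1 inside Usp7. Klf13, which encodes a Krüppel-like transcription factor, had its chain 35.4 to 75.2 kb upstream of its 5′ end (chromosome 7, 63974051 to 64015102). The region at 63990951 to 63992102 stood highest there, at percentile 94.6 in liver replicate 1 and 85.5 in replicate 2, and the region at 63986801 to 63987402 was at 15.9 and 20.3. Cd24a encodes a surface glycoprotein of erythroid and B cells. The chain beyond it (chromosome 10, 43597951 to 43631802) lay within the noncoding gene F930017D23Rik, and the nearest yolk sac peak was 16948 bp away. The region at 43609001 to 43611152 was at 98.2 and 89.1, and that at 43605751 to 43606152 at 7.85 and 26.9. A region that replicate 1 placed at 94.5, at 43625051 to 43626152, was at 37.3 in replicate 2.

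Picalm encodes a clathrin adaptor that serves transferrin uptake in erythroid cells. Its chain lay 46.1 to 64.7 kb upstream (chromosome 7, 90065051 to 90084552), with no other region in the span. The region at 90077251 to 90078202 was at percentile 91.1 in liver replicate 1 and 82.3 in replicate 2, and that at 90079751 to 90081202 at 57.1 and 96.4. The weakest, at 90082151 to 90082702, was at 0.635 and 21.1, which places it near the lowest score deposited in replicate 1. Usp7 encodes a deubiquitinase. Its 6 intronic regions (chromosome 16, 8744101 to 8765102) included 1 of 152 bp, the smallest width among the members, which 2 regions of other chains share, at 7.82 and 3.67. The highest, at 8761651 to 8762502, was at 84.3 and 86.9. Both lists placed the same region highest and the same region lowest.

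Chains with 5 regions included those at Ranbp10, Snx3, Mkrn1 and Rpia. In Ranbp10, which encodes a Ran-binding protein (chromosome 8, 105801251 to 105833952), the first region, 105801251 to 105802302, was at percentile 96.4 in liver replicate 1 and 89.3 in replicate 2. The fourth, 105819651 to 105821802, was at 95.2 and 94.7, and the one starting at 105810351 at 49.9 and 6.82. The last region of this chain lay past the gene's start, with its midpoint in an exon of Tsnaxip1. Snx3 encodes a sorting nexin needed for transferrin receptor recycling in erythroid cells (chromosome 10, 42511351 to 42538652). Its last region, at 42537101 to 42538652, lay past the gene and was the highest, at 87.1 and 95.2, and the span held no yolk sac peak. At Mkrn1, a ubiquitin ligase gene (chromosome 6, 39416851 to 39430152), 1 region overlapped the gene and 4 lay upstream. The last was the highest in replicate 1, at 87.2 beside 71.9 in replicate 2, and the third was the highest in replicate 2, at 80.03 beside 84.4 in replicate 1.

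Rpia encodes ribose 5-phosphate isomerase of the pentose phosphate pathway. Its chain lay 61.2 to 82.5 kb from the 5′ end, beyond the gene (chromosome 6, 70709351 to 70731302). The nearest yolk sac peak was 42348 bp away, and the highest percentiles were 58.9 in replicate 1 and 59.6 in replicate 2. The region at 70729001 to 70729902, which overlaps the Gm30211 window by 212 bases, the GATA match included, was at 38.8 and 20.6.

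Ranked by the median over a chain of the lower of the 2 percentiles, the leading chains were in Fhdc1 and March3, next to Hbb-y and Ppm1b, in Psmd9, next to Hlx and Mki67, in Foxo3, and next to Olfr65 and Hbq1b. Fhdc1 encodes a formin-related protein, and its 3 regions (chromosome 3, 84455301 to 84472602) were at percentiles 95.6, 26.4 and 89.8 in liver replicate 1 and 93.5, 17.5 and 99.7 in replicate 2. Foxo3 encodes a forkhead factor that acts in red cell maturation. Its 4 intronic regions (chromosome 10, 42243401 to 42266252) were at 88.4, 87.1, 98.2 and 37.01 in replicate 1 and 77.2, 95.0, 69.9 and 48.4 in replicate 2. Both lists put the last region lowest. Hlx encodes a homeobox factor needed for fetal liver growth, and its chain lay 75.3 to 87.4 kb from its 5′ end (chromosome 1, 184644451 to 184657952), with a lowest percentile of 61.6 in either list.

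Ppm1b encodes a protein phosphatase, and its chain lay 15.0 to 31.9 kb upstream (chromosome 17, 84924551 to 84943602), within the noncoding gene 1110020A21Rik. Its regions were at 31.3, 95.03, 96.4 and 80.3 in liver replicate 1 and 30.4, 97.9, 87.8 and 96.2 in replicate 2. March3 encodes a membrane-bound ubiquitin ligase, and its 4 regions (chromosome 18, 56885951 to 56904852) reached 99.3 in replicate 1 and 98.7 in replicate 2. Psmd9 encodes a chaperone of proteasome assembly, and its regions (chromosome 5, 123193001 to 123202402) were at 87.9, 85.2 and 93.6 in replicate 1 and 87.6, 81.6 and 43.3 in replicate 2. The coding start nearest this chain was that of Hpd, which encodes an enzyme of tyrosine breakdown. Mki67, the proliferation marker, was 93.5 kb from the nearest region of its chain (chromosome 7, 135809501 to 135818952). The coding start of Mki67 was still the closest one to it. Of the 10 genes of this ranking, Fhdc1, March3, Ppm1b, Psmd9, Hlx, Mki67 and Foxo3 had promoter peaks in all 4 libraries, Hbq1b in liver only, and Hbb-y and Olfr65 in none.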

How the data were processed

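PRO-seq libraries of liver and yolk sac (2 each) were analysed from peak lists, 1 per library. The authors deposited for each peak a score, without a unit and not scaled between libraries. Per the submitters' processing notes, Bowtie2 and bedtools were used and the build was mm10, which GENCODE M21 (GRCm38) matches. The dREG version and filters are not given in the sources used here. Merging, promoter calls, chaining and gene assignment were computed with scipy 1.17.1, pandas 2.3.3 and numpy 2.4.6 under Python 3.11.15. The functions were tested on simulated lists, where all 882 planted liver regions and all 200 liver chains were recovered. Percentiles are ranks of the score within its list. Wilson intervals cover counting error only. No tests were run, because the calls chose the members. Members, panels and alternatives were chosen with earlier results of these data known. Named are the 12 chains with the most regions, chains at panel genes and the 10 leading by score percentile, and others only where stated, and 1 chain under this rule is not reported here. The motif search planned for all regions was not run, and RefSeq windows of 250 bases were used instead. Genes of the mitochondrial genome were left out. Ahsp was not matched in the annotation. Positions are 1-based.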

Additional observations from a re-analysis of the deposited data

How the results depend on the processing

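Depth is unknown, so an absent peak can mean few reads. No paired analysis was possible because no result comes from a test. The motif search in the central 300 bases of each region was not run. A value counts as moved when it left its Wilson interval, or a count by over 1.5 times. The share of clustered regions inside genes (68.0%) stayed within its interval in all 13 alternatives. Chain number, region number and clustered share moved in 6 of 13: with a gap of 5 kb to 51 chains, 169 regions and 4.94%, with 25 kb to 170, 631 and 18.4%, in the higher-scoring 50% of each list to 18, 56 and 4.42%, and with the 24333 highest-scoring peaks per list to 163, 568 and 11.9%. Leaving out each library gave 112 to 225 chains, 391 to 786 regions and 11 to 14.6%; the highest values came without liver replicate 2, and without liver replicate 1 they were 183, 658 and 13.7%, since a call then needed 1 liver library. Of the 105 main chains, 51 were overlapped by a chain formed with a gap of 5 kb. In the higher-scoring 50% 9 were, among them Usp7, Foxo3, Ppm1b, March3, Hbb-y and Hlx. With lists of equal length 103 were. That filter kept all peaks of liver replicate 2 and nearly all of replicate 1, and otherwise removed yolk sac peaks. It could hardly lose a chain, so the 103 is no check of the chains. The share of genes with promoter peaks in all libraries fell to 66.7% in the higher-scoring 50% and 73.4% with lists of equal length. Both filters remove peaks, and the share over all protein-coding genes under them is not given here. The fall therefore cannot be read as particular to the genes of the chains. The share with liver-only promoters was 0% with a gap of 5 kb. Among alternatives chosen after seeing the data, adding RefSeq starts left 101 chains with 350 regions, and requiring no yolk sac peak within 1 kb left 94 with 327.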
